A study of Oryzias melastigma with 12 samples.

Results

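The 100 probes described here were selected on their own measured values. On each of 3 microarray slides they gave a higher signal at the higher of the concentrations of hexabromocyclododecane (HBCD) that shared the slide, and they had the highest sums of the 3 differences. They were chosen by a fixed rule from 10448 probes (39.5% of the 26429 custom probes on the array) that were well above background on all 12 arrays. Step a was the 0.2 nM array on slide 1 minus the mean of the 3 control arrays on that slide. Step b was the mean of the 2 arrays at 2 nM on slide 2 minus the mean of the 2 arrays at 0.2 nM there. Step c was the mean of the 3 arrays at 20 nM on slide 3 minus the 1 array at 2 nM there. A probe passed when each step was at least 0.1 on the log2 scale, which held for 169 probes (1.62%), and the 100 with the highest sum were kept. Because these values chose the probes, the steps and their sum are given below as a description and support nothing.

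HBCD is a brominated flame retardant that was added mainly to polystyrene foam. It is poorly soluble in water, persists in sediment and accumulates in animal fat, which is why low concentrations in water have been of interest for fish. In work on rodents and fish it is known for effects on the thyroid hormone axis and on liver enzymes. The animals were marine medaka (Oryzias melastigma), small seawater fish that breed readily in the laboratory. A probe measures the abundance of 1 transcript, and in RNA from whole larvae fewer cells of a type and less RNA per cell cannot be told apart. None of the 100 probes carries a gene name or a sequence in the sources used here (0 of 26429 probes joined to a table of 28599 genes), so the probes are described by their values and by their place in the array design, and no function is given.

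Per the labels, larvae within 24 hours of hatching spent 7 days in water with the solvent alone (dimethyl sulfoxide diluted 1 in 30000 , control) or with the same solvent and 0.2, 2 or 20 nM HBCD. Each group had 3 dishes of 100 larvae, and each RNA sample was a pool of 30 larvae hybridised to 1 single-colour Agilent array (3 arrays per group, 12 in all). The p-values below measure only the spread between such pools. In fits with group alone that spread also holds differences between slides, as the 0.2 and 2 nM groups were split over slides. Slide 1 held the 3 controls and replicate 3 at 0.2 nM. Slide 2 held replicates 1 and 2 at 0.2 nM and replicates 2 and 3 at 2 nM, and slide 3 held replicate 1 at 2 nM and the 3 arrays at 20 nM. The 75th percentile of the spot intensity ran between 293 and 478 units, 11556 to 12829 probes per array were well above background, and 0 spots were saturated.

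Of the 3 differences, the one between 2 nM and 0.2 nM was the largest for 55 of the 100 probes. That difference also spread widest over all probes. Over the 100 probes the median step was 0.27 for 0.2 nM over control, 0.36 for 2 nM over 0.2 nM and 0.21 for 20 nM over 2 nM (log2), where the other 10348 probes had medians of -0.0035, -0.0087 and 0.0024. The sum of the steps had a median of 0.87 and an interquartile range of 0.75 to 1.11, with a lowest value of 0.65 and a highest of 4.89. The median sum corresponds to 1.83-fold, and 37 of the 100 probes had a sum of at least 1. The sum joins steps from 3 slides that the rule selected, and it is not the plain difference between 20 nM and control. That plain difference had a median of 0.30 and was at least 1 for 5 probes. The smallest of a probe's 3 steps had a median of 0.16, and 24 probes had all 3 steps at 0.2 or more. The border of the list was narrow: the last 3 probes inside it had sums of 0.672, 0.671 and 0.652, and the first 3 outside had 0.652, 0.645 and 0.645. Over all probes, 25.01% reached 0.1 in step a, 32.8% in step b and 26.8% in step c.

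**Figure D1:**
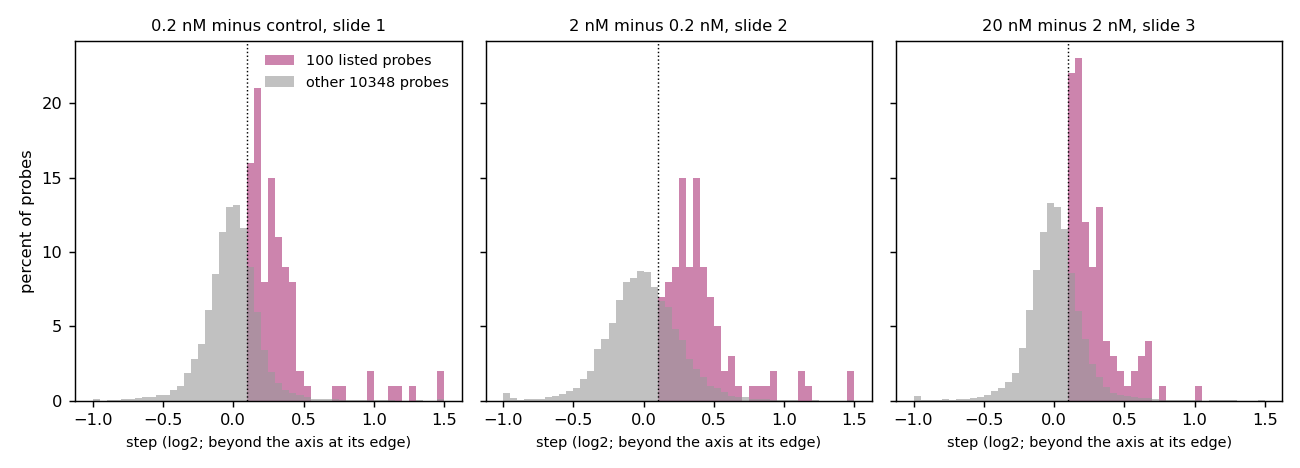
Percent of probes (vertical axis) against the size of each within-slide step on the log2 scale (horizontal axis), for the 100 listed probes and the other 10348 probes. The dotted line marks the minimum of 0.1 that the rule asked for; the other probes centre near 0 in all 3 panels, and the listed probes have medians of 0.27, 0.36 and 0.21.

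By the largest step, 27 probes were led by step a, 55 by step b and 18 by step c. Over all probes step b also spread widest, with an interquartile range of -0.16 to 0.16. That range was -0.11 to 0.10 for step a and -0.097 to 0.11 for step c. Shares of all probes by largest step were not computed, and the rule used these values, so nothing is read from the counts. The 27 probes whose largest step was 0.2 nM over control had median steps of 0.42, 0.26 and 0.17. The 55 whose largest step was 2 nM over 0.2 nM had medians of 0.20, 0.43 and 0.19, and the 18 led by 20 nM over 2 nM had 0.18, 0.21 and 0.55. The 3 classes had close median sums (0.85, 0.85 and 0.94). In each class the largest step made up about as much of the sum as the other two steps together, with a median share of 45.3%, 50.5% and 55.9%.

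No step of a listed probe passed the threshold when all probes were tested together. A linear model of the 6 combinations of slide and group was fitted with limma to the deposited log2 values of all 10448 probes, with Benjamini-Hochberg adjustment at 0.05. For step a, 0 of the 100 probes passed, where 0.0861% of all probes did so in the higher direction (9 probes). Of step b, 0 passed (0% of all probes), and of step c, 0 passed (0% of all probes). For the sum of the 3 steps 0 passed, against 0.00957% of all probes (1 probe). At an unadjusted p under 0.05 in limma the counts among the listed probes were 15, 37 and 6 for the 3 steps and 55 for the sum. Over all probes they were 403, 1909, 380 and 565 in either direction, of which 199, 1029, 193 and 303 were higher. The smallest limma adjusted p among the 100 probes was 0.107 for step a, 0.0821 for step b, 0.293 for step c and 0.136 for the sum. The sum had a median standard error of 0.36 among the listed probes and 0.25 among all probes, and 68 of the 100 sums were over 2 standard errors. The probes were chosen for positive steps and high sums, so nothing is read from the unadjusted counts or from these 68. Steps a and c each rest on a lone array on one side, which the model assumes to vary like the others.

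The single arrays overlapped more often than the means show. The 0.2 nM array of slide 1 lay above all 3 controls for 83 of the 100 probes (29.6% of all probes). Both 2 nM arrays of slide 2 lay above both 0.2 nM arrays there for 70 (26.8% of all probes), and all 3 arrays at 20 nM lay above the 2 nM array of slide 3 for 56 (19.2% of all probes). All 3 conditions held together for 30 probes (0.919% of all probes). The rule used these same contrasts, so nothing is read from these counts beyond how many of the means hide an overlap.

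Relative to the mean of the controls, the median of the 100 probes did not climb evenly across arrays. The controls themselves lay at -0.0036, -0.018 and 0.015 (log2, replicates 1 to 3). At 0.2 nM the median was 0.083 and -0.13 on slide 2 and 0.27 on slide 1. At 2 nM it was 0.33 and 0.24 on slide 2 and 0.032 on slide 3, and at 20 nM it was 0.12, 0.35 and 0.29 on slide 3. The arrays at 0.2 nM on slide 2 and the array at 2 nM on slide 3 were thus the lowest of their groups. They are the lower side of steps b and c, so the rule favoured probes with low values there. The median of all probes stayed between -0.043 and 0.036 on every array. The deposited columns all had medians of 4.34, which limits how far that median could move. The medians of the listed probes and the counts that follow use the arrays of the rule, and nothing is read from them. Replicate 2 at 0.2 nM was the lowest of the 12 arrays for 37 of the 100 probes (11.8% of all probes), and replicate 2 at 2 nM was the highest for 31 (12.5% of all probes). Replicates 1, 2 and 3 at 20 nM were the highest for 10, 15 and 19 of the 100 (14.8%, 5.69% and 6.92% of all probes).

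**Figure D2:**
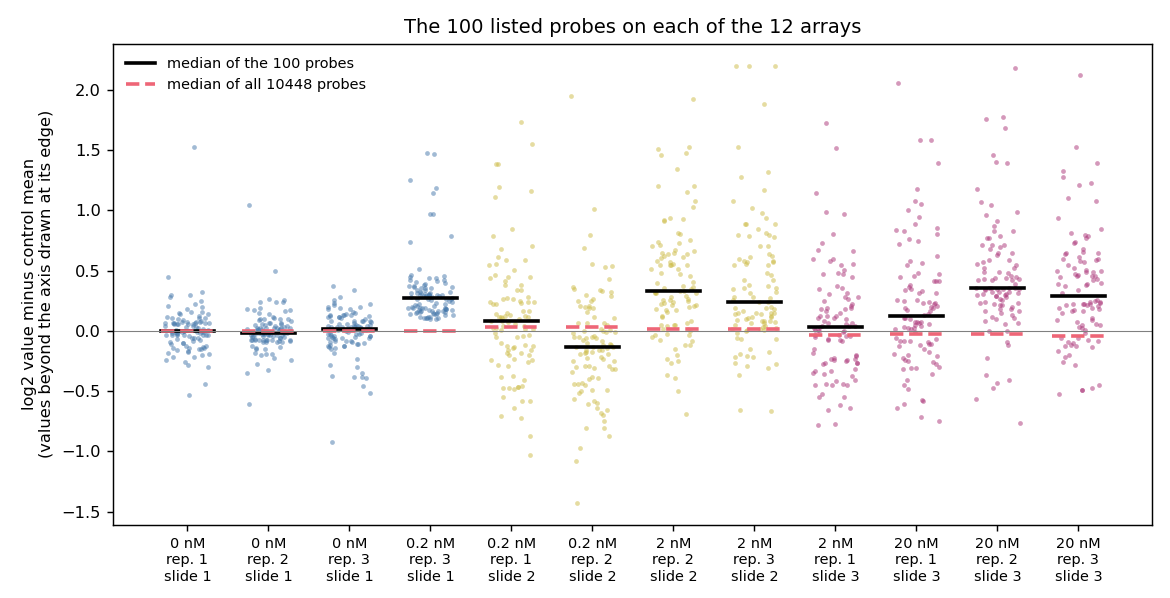
Log2 value minus the mean of the control arrays (vertical axis) for the 100 listed probes on each of the 12 arrays, ordered by concentration and slide and coloured by slide. Points are probes, black bars their medians and dashed bars the medians of all 10448 probes; 3 values beyond the axis are drawn at its edge, and the black bar drops to -0.13 for replicate 2 at 0.2 nM and to 0.032 for replicate 1 at 2 nM.

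Arrays of the same concentration on different slides show the same drop. At 0.2 nM the arrays of slide 2 minus the array of slide 1 had a median of -0.34 over the listed probes and 0.038 over the others. This difference was below 0 for 79 of the 100 and for 4627 of all 10448 probes. At 2 nM the array of slide 3 minus those of slide 2 had a median of -0.30 over the listed probes and -0.075 over the others. That was below 0 for 81 of the 100 and for 6354 of all 10448 probes. Both differences were below 0 for 63 of the listed probes, a count that was not taken over all probes. These differences contain the same arrays as the steps with the opposite sign, so they are no independent measurement, and slide and the choice of probes cannot be told apart in them.

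Without slide in the model, the sum of the steps and the between-slide differences combine into the plain difference between groups. Over the listed probes the plain difference from control had a median of 0.092 at 0.2 nM (63 of 100 above 0), 0.21 at 2 nM (77 above 0) and 0.30 at 20 nM (81 above 0, 19 below 0), where the other probes had medians of 0.022, -0.015 and -0.042. The 3 differences share the control arrays. At 20 nM the plain difference was larger than the sum of the steps for 6 of the 100 probes, and 5 probes differed from control by 1 or more (log2). Group means that increased at every concentration were found for 26 of the 100 probes (3.39% of all probes). The plain means of the other listed probes did not increase at every concentration. All 3 exposed means lay above the control mean for 50 probes (17.6% of all probes), and all arrays at 20 nM lay above all controls for 48 (15% of all probes). The plain differences use the arrays of the rule, and the one at 20 nM contains the sum that chose the probes. It also sets slide 3 against slide 1. Nothing is therefore read from the gap between the listed probes and the others.

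**Figure D3:**
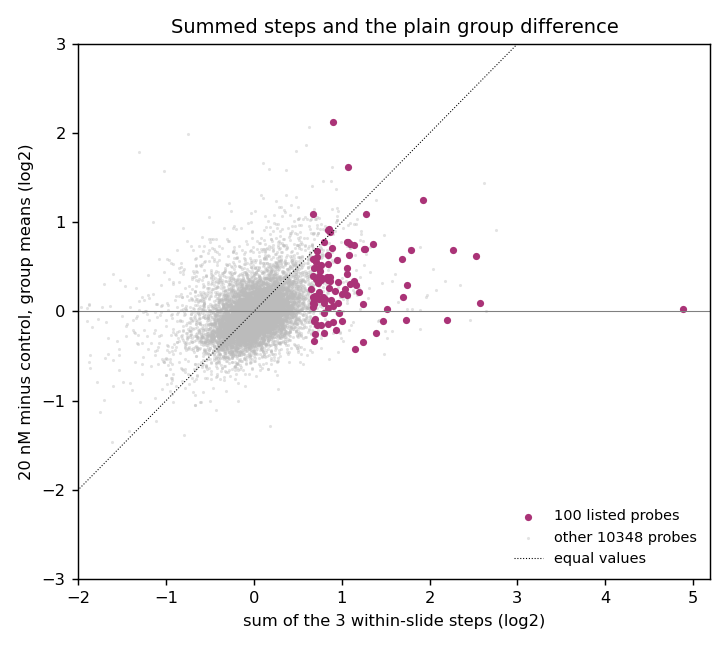
Plain difference between 20 nM and control (vertical axis, log2) against the sum of the 3 within-slide steps (horizontal axis, log2), for the 100 listed probes and the other probes, of which 27 fall outside the axes. The dotted line marks equal values; 6 listed probes lie above it and 19 lie below 0 on the vertical axis.

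The comparisons of whole groups called 12 of the 100 probes, all of them higher in exposed larvae. They use the same arrays as the rule, so these calls support nothing about the listed probes. In limma with group alone over 10448 probes, 0 of the 100 passed at 0.2 nM against control (0% of all probes), the smallest limma adjusted p among them was 0.149, and 11 of them had an unadjusted p under 0.05, where 1544 of all 10448 probes did. At 2 nM 9 passed (1.44% of all probes were called higher), and at 20 nM 10 passed (1.59% of all probes were called higher). These counts ran from 1 to 15 at 2 nM and from 2 to 14 at 20 nM when 1 array was left out, with the fewest at 2 nM without control replicate 1 or 2 and at 20 nM without control replicate 2. The most were found without medium replicate 1 at 2 nM, and without low replicate 2 or medium replicate 1 at 20 nM. The calls of higher values over all probes moved in the same fits, between 35 and 223 at 2 nM and between 23 and 241 at 20 nM. With slide as a block the 20 nM comparison is the sum of the steps, in which 0 of the 100 passed. No array at 2 or 20 nM shared a slide with a control, so slide and concentration cannot be told apart in fits with group alone. The same holds for the single probes below. Over all probes, calls in either direction numbered 185 at 2 nM and 221 at 20 nM with group alone. They numbered 1 and 4 with slide as a fixed block, and 35 and 0 with slide as a random block.

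Among these 12 probes, 2 were picked after their values were seen, as those with the smallest adjusted p at 20 nM. Their calls, and the fits without 1 array, use the arrays that chose the probes and are given only as a description. CUST_19082_PI414333748, place 59 of the list, had log2 values of 8.35, 8.11 and 8.28 in controls, 8.80, 8.49 and 8.56 at 0.2 nM, 9.05, 9.18 and 8.95 at 2 nM, and 9.08, 9.21 and 9.18 at 20 nM. The exposed arrays lay above the controls at every concentration, and the arrays at 2 and 20 nM overlapped each other. Its difference from control was 0.81 at 2 nM (limma adjusted p = 0.00468) and 0.91 at 20 nM (SE 0.11, limma adjusted p = 0.00569). Both calls held in all 12 fits without 1 array, with highest adjusted p-values of 0.0356 and 0.0401, and the sum of its steps was 0.84 with a limma adjusted p of 0.701. CUST_19243_PI414333748, place 34, had 6.83, 6.91 and 6.80 in controls, 6.87, 6.72 and 7.17 at 0.2 nM, 7.52, 7.40 and 7.42 at 2 nM, and 7.70, 7.62 and 7.58 at 20 nM. Its arrays at 0.2 nM straddled the controls, and the 3 arrays at 20 nM lay above all others. The difference from control was 0.78 at 20 nM (SE 0.11, limma adjusted p = 0.00869), with a highest adjusted p of 0.0440 without 1 array. At 2 nM it was 0.60 (limma adjusted p = 0.0242), a call lost in 5 of the 12 fits without 1 array, namely without each control and without medium replicates 2 and 3, with a highest adjusted p of 0.104. This probe had the smallest SD within slide and group of the 100 (0.065) and the smallest adjusted p for the sum of the steps (0.136).

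The probes with the largest steps and sums were named by a rule: the first 2 by step a, by step b, by step c, by the sum and by the smallest step, which gave 9 probes. The first place of the list rests on 1 spot. CUST_14060_PI414333748 had values of 6.01, 5.995 and 5.86 in controls, 5.72, 5.67 and 6.25 at 0.2 nM, 5.77, 6.08 and 14.07 at 2 nM, and 5.77, 6.28 and 5.89 at 20 nM. Replicate 3 at 2 nM was far above the other 11 arrays, which lay between 5.67 and 6.28. The probe is printed once, and its spot on that array was marked as an outlier by the scanner software. The sum of its steps was 4.89 (SE 3.604, limma adjusted p = 0.967) in the deposited values and 0.89 without replicate 3 at 2 nM. In the scanner values scaled to the 75th percentile it was 4.83 with that spot and 0.77 without it.

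CUST_20390_PI414333748, second by the sum (2.57, SE 2.02, limma adjusted p = 0.975), also owed much of it to replicate 3 at 2 nM. It had 7.60, 7.44 and 7.72 in controls, 9.13, 9.54 and 8.73 at 0.2 nM, 7.35, 8.29 and 12.58 at 2 nM, and 7.01, 7.93 and 8.08 at 20 nM. All arrays at 0.2 nM lay above the controls, while the arrays at 20 nM overlapped them and their mean differed from the control mean by 0.089. CUST_8022_PI414333748, the third by the sum and the second by step b, had its highest values on replicate 2 at 2 nM (7.58) and replicate 2 at 20 nM (7.51), and its lowest on replicate 2 at 0.2 nM (4.68). Its sum of 2.53 had an SE of 1.07, and the arrays of its 20 nM and control groups overlapped.

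The highest values of step a belonged to 2 probes that behaved differently on the other slides. CUST_185_PI414333748 had 6.82 on the 0.2 nM array of slide 1, against 5.49, 5.57 and 4.95 in controls. Its 0.2 nM arrays on slide 2 had 5.57 and 4.77, within or below the range of the controls, and its mean at 20 nM differed from control by -0.093. CUST_15654_PI414333748 had 6.41, 6.22 and 6.61 in controls, 7.61, 7.11 and 7.89 at 0.2 nM, 7.56, 7.92 and 7.49 at 2 nM, and 7.42, 7.81 and 7.74 at 20 nM. Every exposed array of this probe lay above every control, and the exposed groups overlapped one another. Its difference from control was 1.12 at 0.2 nM (limma adjusted p = 0.149), 1.24 at 2 nM (limma adjusted p = 0.0114) and 1.25 at 20 nM (SE 0.20, limma adjusted p = 0.0119). The call at 20 nM was lost in 3 of 12 fits, without control replicate 1, control replicate 2 or high replicate 3, and that at 2 nM in 2 of 12, without control replicate 1 or 2 (highest adjusted p 0.0723 and 0.0646). The sum of the steps, which takes slide into account, was 1.92 with a limma adjusted p of 0.358. The calls and the fits behind them use the arrays that chose the probe. No array at 2 or 20 nM shared a slide with a control, so the calls are given only as a description.

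Step c was led by a pair of probes in which 1 array at 20 nM stood high. CUST_19930_PI414333748 had 7.32, 6.37 and 6.15 at 20 nM, against 5.61 on the 2 nM array of slide 3. CUST_12710_PI414333748 had 4.83, 6.90 and 5.24 at 20 nM, against 4.89 on that array. The 20 nM arrays of the first all lay above the 2 nM array, and those of the second straddled it. Against control, neither differed past the threshold at 20 nM (limma adjusted p = 0.270 and 0.806, differences of 0.68 and 0.22).

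CUST_22145_PI414333748 had the largest smallest step of the list, 0.44. Its values were 5.53, 5.45 and 5.91 in controls and 6.07 at 0.2 nM on slide 1, 5.26 and 4.83 at 0.2 nM and 5.59 and 6.10 at 2 nM on slide 2, and 5.43 at 2 nM and 5.70, 5.98 and 6.11 at 20 nM on slide 3. The groups did not overlap on any of the 3 slides, yet over all arrays the 20 nM group overlapped the controls, with a mean difference of 0.30 (limma adjusted p = 0.584). The probe was dim, with a mean level of 5.66, where the lowest among all probes was 5.18. Its sum of 1.75 had an SE of 0.44 (limma adjusted p = 0.556) and was 0.95 with another background correction (normexp). The probe was listed whichever of the 10 removable arrays was left out. Low replicate 3 and medium replicate 1, the lone arrays of steps a and c, could not be left out. CUST_9795_PI414333748 followed with a smallest step of 0.38. It had 1 high array in each of the 2 nM and 20 nM groups (7.57 and 7.94), and its other 10 arrays lay between 6.03 and 6.65.

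**Figure D4:**
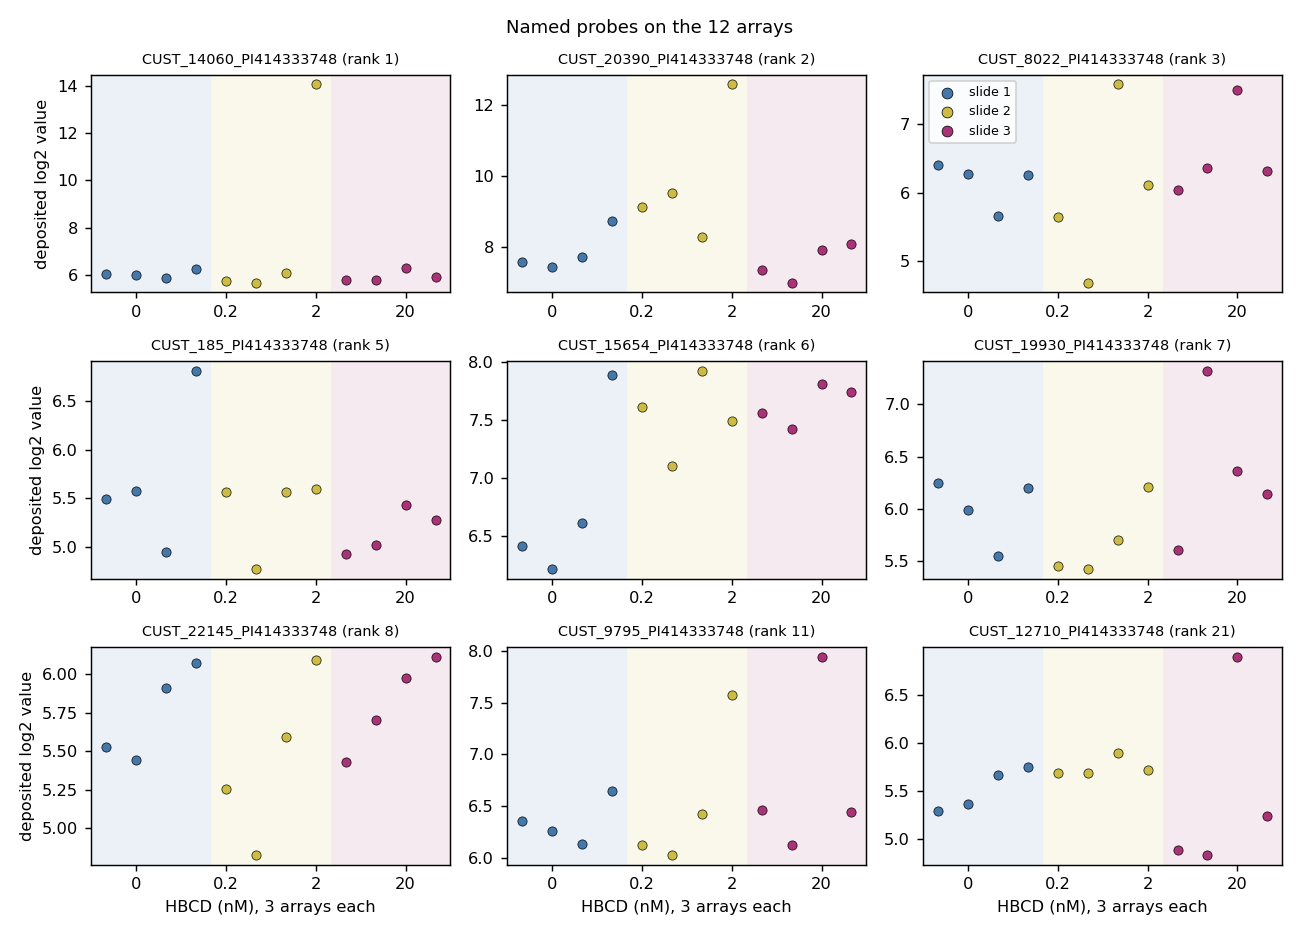
Deposited log2 values (vertical axes) of the 9 named probes on the 12 arrays, grouped by HBCD concentration (horizontal axes, nM) and shaded by slide. Single arrays stand apart in CUST_14060_PI414333748 (14.07) and CUST_20390_PI414333748 (12.58), while every exposed array of CUST_15654_PI414333748 lies above its controls.

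The listed probes were on average dimmer and more variable than the other probes. Level and spread were not named in the ranking, but they come from the same 12 arrays as the steps. They are therefore no independent trait of the listed probes, and nothing is read from the gap. The mean level over the 12 arrays had a median of 6.93 among the listed probes and 8.76 among the others (log2). When all probes were split by level into 4 bins of equal size, the dimmest held 53 of the 100, and the next bins held 31, 13 and 3. The SD of the arrays about the mean of their slide and group had a median of 0.22 among the listed probes and 0.13 among the others. Within the dimmest bin the medians were 0.25 for the listed probes and 0.18 for all probes. In the following bins they were 0.22 and 0.15, 0.16 and 0.12, and 0.33 and 0.10, the last over 3 listed probes. The listed probes had the larger median in each combination with more than 1 array: 0.13 against 0.081 in controls, 0.18 against 0.066 at 0.2 nM on slide 2, 0.16 against 0.10 at 2 nM on slide 2 and 0.19 against 0.15 at 20 nM. The part of level and spread in the choice of these probes was not tested.

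**Figure D5:**
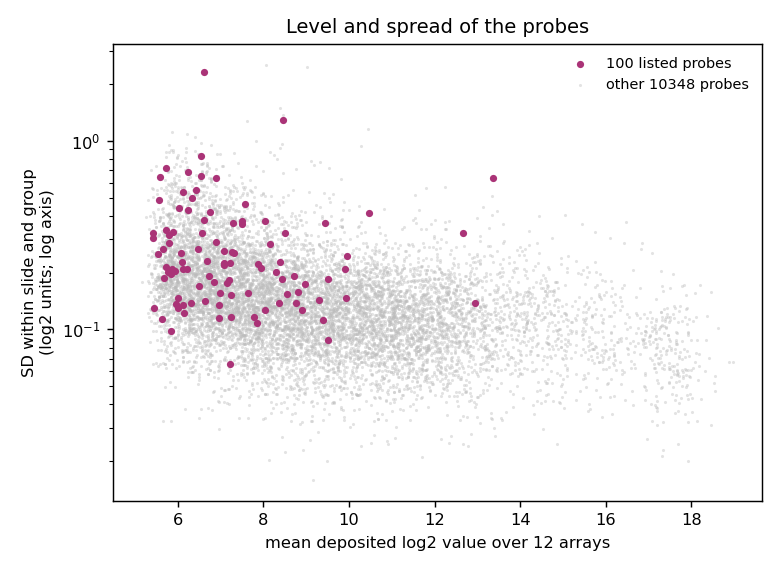
SD of the arrays within slide and group (vertical axis, log2 units on a log axis) against the mean deposited log2 value over 12 arrays (horizontal axis), for the 100 listed probes and the other 10348 probes. The listed probes crowd at the left, with a median level of 6.93, and have a median SD of 0.22, against 8.76 and 0.13 for the other probes.

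Some pairs of arrays of the same slide and concentration differed in the same direction over most of the listed probes. No step sets these arrays against each other, but their values were averaged in the steps that chose the probes. The choice of probes and a difference between arrays cannot be told apart in these counts, which are given only as a description. On slide 2, replicate 1 at 0.2 nM was higher than replicate 2 for 81 of the 100 probes, with a median difference of 0.17, where 51.6% of the other probes were higher with a median of 0.0059. On slide 3, replicate 2 at 20 nM was higher than replicate 1 for 80 (median difference 0.20, other probes 51.3%), and replicate 3 was higher than replicate 1 for 72 (median difference 0.15, other probes 51.6%). Replicate 3 was higher than replicate 2 for 42 (median difference -0.040, other probes 48.0%). Replicate 2 at 2 nM exceeded replicate 3 for 61 (other probes 51.8%). Among the controls the counts stayed between 53 and 57 of 100, and the median differences between 0.012 and 0.034.

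The place of an array on its slide moved with concentration in every step. Positions run 1 to 4 on a slide. The higher concentration lay at a mean position of 1, against 3 for the lower one, in step a, at 1.5 against 3.5 in step b and at 2 against 4 in step c, so concentration and position cannot be told apart by layout. A linear term for position, estimated within slide and group, had a median slope of 0.0024 per position among the listed probes and -0.0031 among the others. That value pools slopes of opposite sign: the median slope of the listed probes was 0.0060 in the controls, -0.17 at 0.2 nM on slide 2 (81 of 100 negative), -0.098 at 2 nM on slide 2 (61 negative) and 0.074 at 20 nM (28 negative), while the other probes lay between -0.0099 and 0.0065. For that term limma called 0 probes (679 at an unadjusted p under 0.05). With it in the model the median sum of the steps of the listed probes was 0.95. A slope shared by all slides cannot correct steps whose slides differ in slope, so nothing is read from that value.

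The listed probes came from across the design. Their numbers in the custom design ran between 185 and 26060 with no consecutive pair and a smallest gap of 3, and their spots covered rows 12 to 522 of 532 and columns 2 to 85 of 85. Of the 100 probes, 94 were printed once and 6 were printed 5 times on the array, whereas 19.5% of all probes were printed 5 times. The 6 probes printed 5 times had sums of 0.70 to 1.14. The SD over their spots of an array, a measure of the array alone, had medians of 0.048 to 0.39, and the median over all probes printed 5 times was 0.083. Spots marked as outliers occurred for 6 of the 100 probes on at least 1 array (10.1% of all probes), in 9 array values.

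Membership depended on single arrays for most of the list. Of the 12 arrays, 10 could be left out while all 3 steps remained defined. All steps stayed at 0.1 or more in each of those 10 fits for 18 of the 100 probes and above 0 for 68. When the list was rebuilt, 66 to 84 of the 100 probes were listed again, the fewest without replicate 2 at 0.2 nM, and 12 were listed every time. Those 12 had sums of 0.84 to 1.75 with a median of 1.12, a median level of 7.38 and a median SD within slide and group of 0.23. Their mean at 20 nM lay above the control mean for 11 of the 12 (43.0% of all probes). No overlap in any step was found for 8 (0.919% of all probes). The rule's own steps kept these 12, so nothing is read from these counts.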

How the data were processed

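Total RNA of pools of whole larvae was measured on 12 single-colour Agilent arrays. Spot intensities were deposited as read by Agilent Feature Extraction 10.7.3.1 per the file headers (10.7 per the submitters' processing notes), with background-subtracted values and marks for outlier spots. The log2 values are a table the authors deposited. Its columns had medians of 4.34 and correlated with the log2 intensity of their own array at r of 0.99987 to 0.99996 across probes, so scale and direction are settled and the values are not centred. The sources used here do not name the program that made it. The files held 0 columns of other samples.

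The deposited log2 values were used as given, with 1 value per probe. The scanner's mark for signal well above background had to be present on a share over 0.5 of a probe's spots on each array. The probes and their rule were chosen with earlier results of these data known, and so were the tests and alternatives. Steps were fitted with limma 3.58.1 in R 4.3.3 as differences between the means of the 6 combinations of slide and group (6 residual degrees of freedom), and groups without slide (8 residual degrees of freedom), over all 12 arrays and 10448 probes, with Benjamini-Hochberg adjustment at 0.05. The fits were tested on simulated data. The rule for named probes took the first 2 by each step, by the sum and by the smallest step. The number of arrays limits the precision. The replicate numbers were not taken as pairs, because no label ties them to a shared dish, day or batch. Correlations between same-numbered replicates were -0.39 to 0.28. Many of these arrays lay on different slides, so the correlations cannot settle whether the numbers pair them. Gene lists were not tested, as 0 probes had a gene name. Alternatives were other scalings of the scanner intensity, normexp background correction, no filter on dim probes, array weights, an intensity trend, slide as a block, other cutoffs of the rule and leaving out 1 array at a time.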

Additional observations from a re-analysis of the deposited data

How the results depend on the processing

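Counts of calls are from limma over all probes, in either direction. With the replicate block (the replicate number of the labels), the median sum of the steps was 0.907, against 0.868 without it, and the calls were 7, 0 and 4 for steps a, b and c, 2 for the sum, and 0, 135 and 164 for 0.2, 2 and 20 nM against control. Whether the numbers pair the arrays is not known from the labels.

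Calls of the sum (4) were 0 with scanner intensity scaled to the 75th percentile, 1 with that of detected probes, 0 with the median, 452 without a filter on dim probes, 8 with array weights, 1 with an intensity trend and 2 with a position term. Calls of step a (10) were 287 without a filter, 28 with weights and 4 with position. Calls of step b (0) were 1 at the 75th percentile, whether or not outlier spots were kept, 1 for detected probes, 27 at the median, 29 with normexp on the median spot signal, 19 without a filter and 30 with the trend. Calls of step c (8) were 403 without a filter, 28 with weights and 1 with position. At 0.2 nM against control (0) they were 1 without a filter, 3728 with weights and 10 with slide as a fixed block. At 2 nM (185) they were 68 at the median, 2037 with weights, 1 with slide fixed and 35 with slide random. At 20 nM (221) they were 81 at the median, 2864 with weights, 4 with slide fixed, 0 with slide random and 705 with only the 2 groups in the fit.

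Of the 100 probes, 57 were kept at median scaling, 51 with normexp, 1 without a filter, 57 with a minimum step of 0, 24 with 0.2 and 50 in a list of 50. The median sum was 1.10 with a minimum of 0.2 and 1.12 in the list of 50. Scaling to the median moved the median sum of all probes to 0.247, against 0.0021 in the deposited values, and 589 probes then passed the rule. Under all 4 scalings and corrections of the scanner values, 25 probes stayed listed and 91 kept all steps above 0.

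Leaving out 1 array, the sum gave 1 to 8 calls, step a 5 to 12, step b 0 to 328, step c 6 to 14, 0.2 nM 0 to 284, 2 nM 36 to 580 and 20 nM 27 to 401, and the kept probes numbered 66 to 84. Step b had 134, 10, 20, 11, 328 and 3 calls without low replicates 1 and 2, medium replicates 2 and 3 and high replicates 1 and 2, and step c had 14 without low replicate 1 or 2. Step a had 6 and 5 without control replicates 2 and 3, and 0.2 nM had 284 without low replicate 3. At 2 nM there were 64, 36 and 58 without control replicates 1 to 3 and 580, 82 and 88 without medium replicates 1 to 3. At 20 nM there were 59, 27 and 63 without control replicates 1 to 3, 401 without medium replicate 1 and 124, 126 and 62 without high replicates 1 to 3. The sum had 8 without medium replicate 3, 2 without control replicate 3 or high replicate 1, and 1 without control replicate 1 or 2 or high replicate 2 or 3.

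Of the named probes, CUST_19930_PI414333748 turned to -0.18 with the position term (limma adjusted p = 0.977, range over its alternatives 0.389 to 0.999). CUST_14060_PI414333748 had a sum of 8.88 without medium replicate 2, which leaves its outlier spot alone at 2 nM on slide 2 (limma adjusted p = 1.89e-05, range 1.89e-05 to 0.999). Other named sums also moved in size. Over the alternatives the sum ran from 0.12 to 3.73 for CUST_8022_PI414333748 and from 0.43 to 6.83 for CUST_20390_PI414333748. The lowest value came with the position term for the first and without medium replicate 3 for the second. The causes of the other changes were not tested. The scanner scaling with outlier spots kept, normexp on the median spot signal and the position term were chosen after seeing the data. Normexp on the mean spot signal was not run, as the files used here give the median signal. Low replicate 3 and medium replicate 1 could not be left out of the steps.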

Other observations

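The signs of the 3 within-slide steps over all 10448 probes fell into 8 patterns. The most common were up, down, up with 2008 probes (19.2%) and down, up, down with 1854 (17.7%). All 3 steps were above 0 for 1014 probes (9.71%) and below 0 for 1094 (10.5%). Steps b and c share no array with step a, and each slide was scanned once. At a minimum of 0.1 in size, 169 probes were higher at every step and 216 were lower at every step. Of the 169, 69 had too low a sum to be listed, with sums between 0.34 and 0.652 and a median of 0.54.

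CUST_4476_PI414333748, chosen here after its values were seen, was printed 5 times and had steps of 0.45, 0.25 and 0.40, a mean level of 9.90 and a median SD over its spots of 0.088. Its difference between 20 nM and control was 0.75 (limma adjusted p = 0.0965 with group alone), and the sum of its steps was 1.10 (limma adjusted p = 0.716). On replicate 1 at 2 nM, the lower side of step c, 1 of its spots was marked as an outlier.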
